A study of Danio rerio with 40 samples.

Results

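Voltage-gated sodium and calcium channel genes were read in the brains of 40 adult zebrafish (Danio rerio). The members were all genes of the deposited annotated gene table whose symbol began with scn and a digit, or with cacna, cacnb or cacng, and there were 65 of them among 25806 listed genes. They carried 61 symbols, because cacna1db stood under 4 Ensembl gene models and cacna2d4a under 2. Reads of split or overlapping models may have been shared out between them, so the levels of these 2 symbols are uncertain. By subunit, the members were 8 sodium channel pores, 6 sodium channel beta subunits, 21 calcium channel pores, 7 alpha2delta, 7 calcium channel beta and 16 gamma or TARP genes.

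A voltage-gated channel opens its pore when the membrane depolarises. Sodium channel pores carry the upstroke of the action potential, and their beta subunits are small adhesion-like membrane proteins that tune gating and placement. Calcium channel pores fall into the L-type family (Cav1), the presynaptic P/Q-, N- and R-type family (Cav2), which triggers transmitter release, and the low-threshold T-type family (Cav3), which supports burst firing. Alpha2delta and beta subunits bring calcium channel pores to the membrane, whereas most genes named cacng encode TARPs, the auxiliary subunits of AMPA-type glutamate receptors.

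The study fed wild-type females and males, about 1 year old and kept together, either a diet with 60% GA (Gum Arabic, a tree exudate rich in fibre) or the standard Control diet for 2 weeks and sequenced poly-A RNA of dissected brains. By the labels, 10 females and 10 males were Treatment fish, which by the study's methods received 60% GA, and 10 females and 10 males were Control fish. Sex was known for every column of the deposited count tables, 20 females and 20 males, from the name the depositors gave each table. Diet was not shown by the column names, so no diet difference is given here, and fish of both diets add to the spread within each sex. Each brain was 1 library of 1 fish, named below by sex and fish number.

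The libraries held between 9392143 and 19131404 counts. In 6 fish, 3 females and 3 males that included male fish 81, only 15540 to 17146 genes had a count, against 18656 to 22741 genes in the other 34 fish. Of the 12426 genes that averaged over 50 counts, these 6 libraries had between 306 and 891 at 0, whereas the others had at most 169. The 10 pan-neuronal marker genes fixed for the check were all measured, and their summed level was 7421 to 11950 CPM in females and 8317 to 12020 CPM in males (CPM, read counts scaled to the size of each library by TMM). In that sum snap25a weighed most, with a median of 63916 counts. Single neuron markers varied unequally over fish. The gene sncb had 68 to 6447 counts and eno2 217 to 11927, whereas syt1a had 11100 to 24626. Sums of region markers were less even than the neuron sum. The sum of 7 cerebellum markers, a list added after the data were seen, was 513 to 7699 CPM in females. In males it was 212 to 8734 CPM. The sum of 7 telencephalon markers, added in the same way, ran from 3.12 to 355 CPM in females and from 0.914 to 186 CPM in males.

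Of the 65 members, 49 had enough counts to be tested between the sexes and 16 did not. None of the 49 was called in females against males at an adjusted p under 0.05 with edgeR's quasi-likelihood test, beside 0 of all 16875 genes tested (0%). At an unadjusted p under 0.05 there was 1 of the 49 members, lower in females, beside 376 of the 16875 genes (2.23%), a similar share. DESeq2 called 0 of 65 members and 0 of 27840 genes (0%), with 2 members (cacna1hb and cacna2d3) and 621 of 27947 genes (2.22%) at an unadjusted p under 0.05. The female over male log2 fold changes of the 49 members lay on both sides of 0, 24 above and 25 below, and their median was -0.01, close to the median of -0.003 over all genes tested. For 15 members, among them scn8aa, cacna1ha, cacnb4b, cacng2a, cacng7b and cacng8b, the whole 95% interval of the fold change lay within 1.5-fold. For the rest the interval reached beyond 1.5-fold on at least 1 side.

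**Figure D1:**
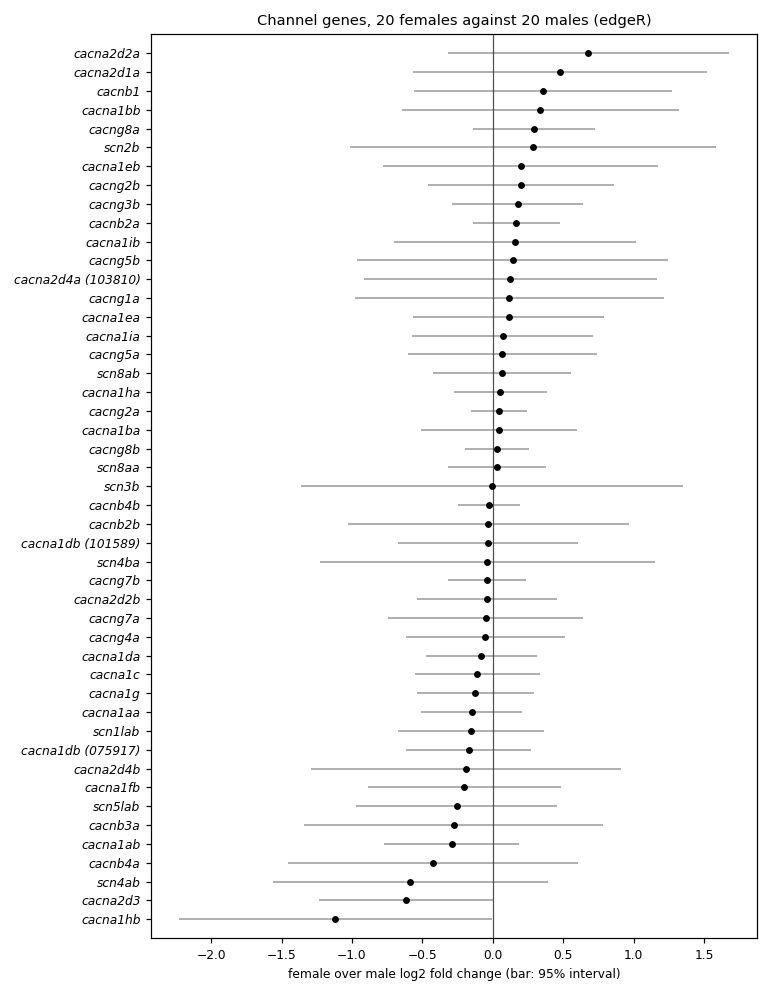
Female over male log2 fold change (horizontal axis) of the tested channel genes shown, 20 females against 20 males; points are edgeR estimates and bars 95% intervals. The bar of cacna1hb alone stops short of 0, at -0.0045, and points lie on both sides of 0. The digits after cacna1db and cacna2d4a are the end of the gene model's identifier.

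The 5 members with the smallest unadjusted p were cacna1hb, cacna2d3, cacng8a, cacna2d2a and cacna1ab. For cacna1hb, a T-type pore, the lowest, median and highest values were 0, 0.759 and 1.86 CPM in females, against 0, 1.29 and 14.7 CPM in males. The highest value was male fish 81, with 223 counts, and the 2 sexes otherwise overlapped. The log2 fold change was -1.12 ± 0.55 (SE, edgeR p = 0.0491, adjusted p = 0.9999), and without male fish 81 it was -0.45 (edgeR p = 0.362). The alpha2delta gene cacna2d3 had 0.918, 6.39 and 15.0 CPM in females, against 2.16, 8.18 and 35.6 CPM in males, where the highest value was again male fish 81. Its log2 fold change was -0.61 ± 0.31 (SE, edgeR p = 0.0529, adjusted p = 0.9999), and -0.40 without that fish (edgeR p = 0.173). Neither difference stood out from the spread between fish once the 6 libraries with few genes were left out, with -0.37 for cacna1hb (edgeR p = 0.437) and -0.16 for cacna2d3 (edgeR p = 0.548).

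The other 3 had larger p values in edgeR. The TARP gene cacng8a had a log2 fold change of 0.30 ± 0.21 (SE, edgeR p = 0.176), the alpha2delta gene cacna2d2a 0.68 ± 0.50 (SE, edgeR p = 0.177) and the P/Q-type pore cacna1ab -0.29 ± 0.24 (SE, edgeR p = 0.230). All of them had an adjusted p of 0.9999. The sexes overlapped over nearly the whole range for cacng8a and cacna1ab. For cacna2d2a, 5 females lay above the highest male (2.85 CPM), 4 of them at 2.93 to 3.32 CPM and female fish 94, a library with few genes, at 9.06 CPM. Without the 6 libraries with few genes the log2 fold changes were 0.18 for cacng8a, 0.28 for cacna2d2a and -0.16 for cacna1ab, and with limma voom and sample quality weights 0.17 for cacng8a, 0.08 for cacna2d2a and -0.11 for cacna1ab.

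Levels below are CPM per gene and were not divided by transcript length, which was not used here; a long transcript yields more reads than a short one, so they are read between fish and not as an order of copies per cell between genes. Lowest and highest values are over all fish, and several fell in the 6 libraries with few genes. Without these libraries the lowest values were 37.6 CPM for scn8aa, 7.39 CPM for scn1lab and 13.6 CPM for cacna1aa. They were 13.5 CPM for cacng3b, 92.6 CPM for cacng2a and 81 CPM for cacng8b. The lowest value of cacna1c, 2.94 CPM, was in another library. Among sodium channel pores, scn8aa gave the most reads. This copy of the SCN8A gene, whose channel sits at axon initial segments and nodes, had 26.4, 108 and 170 CPM as the lowest, median and highest value in females, against 44.4, 106 and 159 CPM in males. The pore gene scn1lab, a zebrafish relative of SCN1A whose loss causes seizures in larvae, had 5.18, 37.7 and 62.5 CPM in females and 5.79, 33.5 and 76.1 CPM in males. The sister copy scn1laa was hardly read at all, with 115 counts summed over all fish and 0 counts in 23 of the 40. Thus a single scn1 pore carried nearly all reads of that pair.

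The remaining sodium pores gave fewer reads. The second copy of SCN8A, scn8ab, had a median of 12.0 CPM in females and 12.1 CPM in males. The pore scn5lab, related to the heart channel gene, had medians of 1.45 CPM in females and 1.39 CPM in males. The muscle-type pore scn4ab had 0.521, 2.13 and 13.4 CPM in females, against 0.854, 2.09 and 33.6 CPM in males. Its values differed 64.4-fold between the highest fish, male fish 99, and the lowest, female fish 20. Skeletal muscle markers, of which 15 of 16 were measured, summed to 11.4 to 497 CPM in females and 12.4 to 251 CPM in males. Female fish 7 was the highest female in both, whereas among males scn4ab was highest in fish 99 and the muscle sum in fish 82. Female fish 7 and male fish 99 were libraries with few genes. Over all 40 fish the Spearman rho of scn4ab and the muscle sum was 0.41. The marker ckma was above 0 counts in every fish and tnnt3a at 0 in 32, and the part of muscle RNA in the level of scn4ab was not tested. The pores scn4aa and scn12aa did not pass the filter and had at most 28 and 19 counts in any fish.

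Among the sodium channel beta genes, scn2b, scn3b and scn4ba were scattered over fish. The gene scn2b was at 0 counts in 2 females and 4 males and reached 29.6 CPM in a female and 29.5 CPM in a male, around medians of 2.44 CPM in females and 2.48 CPM in males. The gene scn3b was at 0 counts in 3 females and 5 males, with medians of 2.55 CPM in females and 2.10 CPM in males and highest values of 22.5 CPM in females and 18.9 CPM in males. For scn4ba, a copy of the subunit linked in mammals to resurgent sodium current, the medians were 0.931 CPM in females and 0.646 CPM in males and the highest fish reached 8.21 CPM. The other copy, scn4bb, did not pass the filter, and was at 0 counts in 22 fish.

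Among the L-type pores, the tested genes were cacna1c, cacna1da, cacna1db and cacna1fb. The gene cacna1c, shared by heart and brain, had 4.42, 12.8 and 23.9 CPM in females and 2.94, 13.4 and 37.2 CPM in males. For cacna1da, which like its sister copy encodes a channel that opens at modest depolarisation, the values were 4.35, 12.2 and 19.9 CPM in females and 4.61, 12.6 and 21.2 CPM in males. The main model of cacna1db (ENSDARG00000075917) had medians of 8.80 CPM in females and 10.9 CPM in males, and a second model (ENSDARG00000101589) had 1.23 CPM in females and 1.33 CPM in males. The retina-type gene cacna1fb had medians of 4.24 CPM in females and 5.70 CPM in males. Its copy cacna1fa had 14 counts over all fish. The skeletal muscle pores cacna1sa and cacna1sb did not pass the filter, with 344 and 374 counts over all fish and none above 42 counts in a fish.

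The presynaptic Cav2 pores were all read. The P/Q-type copy cacna1ab had 21.7, 52.2 and 175 CPM in females and 26.2, 68.8 and 202 CPM in males, and its copy cacna1aa 5.18, 38.5 and 57.9 CPM in females and 13.6, 40.2 and 53.4 CPM in males. The highest values of cacna1ab were female fish 7 and male fish 99, both libraries with few genes. The N-type copies stood apart, cacna1ba at medians of 10.8 CPM in females and 8.70 CPM in males and cacna1bb at 1.46 CPM in females and 1.501 CPM in males. The R-type copy cacna1ea had medians of 10.7 CPM in females and 8.31 CPM in males. Its sister cacna1eb had medians of 4.43 CPM in females and 4.75 CPM in males, yet reached 36.3 CPM in female fish 53 and fell to 0 counts in male fish 99.

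Among T-type pores, cacna1ha led in reads, with 16.3, 39.7 and 76.5 CPM in females and 11.4, 41.5 and 59.3 CPM in males. Without the 6 libraries with few genes it ran from 16.2 to 59.3 CPM. The gene cacna1g had 9.80, 19.5 and 51.4 CPM in females and 12.3, 20.4 and 90.3 CPM in males. The highest value of cacna1g was male fish 81, the fish that was also highest for cacna1hb and cacna2d3. The copies cacna1ia and cacna1ib had medians of 6.58 and 2.03 CPM in females and 6.36 and 2.00 CPM in males.

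Among the alpha2delta genes, cacna2d4b gave the most reads and had the largest BCV, a measure of spread over fish explained below. Its lowest, median and highest values were 0.1003, 38.5 and 154 CPM in females and 0, 48.6 and 90.2 CPM in males. Raw counts show the same gap, with 0 counts in male fish 34, 2 in female fish 68, 7 in male fish 44 and 8 in female fish 37, against 2019 in female fish 89 and 1284 in male fish 52. The fish thus ran from almost none to a strong signal of cacna2d4b in both sexes. The gene cacna2d2b was read in all fish, at medians of 21.3 CPM in females and 24.0 CPM in males, and cacna2d3 is given above. The genes cacna2d1a, cacna2d2a and cacna2d4a (ENSDARG00000103810) had medians between 0.782 and 1.61 CPM in either sex and were at 0 counts in 6, 5 and 5 fish.

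The calcium channel beta family was carried by cacnb4b, the member with the most reads of all 65. The mammalian gene is known from lethargic mice, which are ataxic and have seizures when it is lost. The values of cacnb4b were 102, 187 and 352 CPM in females and 122, 199 and 289 CPM in males. Without the 6 libraries with few genes they ran from 122 to 259 CPM in the other 34 fish. The gene cacnb2a followed at medians of 11.6 CPM in females and 11.0 CPM in males, and cacnb1 at 5.42 CPM in females and 4.59 CPM in males. The genes cacnb2b, cacnb3a and cacnb4a all had medians from 0.527 to 1.02 CPM in either sex, and cacnb3b did not pass the filter.

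Of the 16 gamma and TARP genes, 11 were tested, and most of their reads came from both copies of cacng2, both copies of cacng8 and cacng7b. Stargazin, the first TARP described, is encoded by cacng2a and cacng2b: cacng2a had 75.4, 132 and 159 CPM in females and 74.1, 126 and 178 CPM in males, and cacng2b 2.61, 91.3 and 156 CPM in females and 10.2, 57.3 and 188 CPM in males. The copies of the TARP best known from the mammalian hippocampus gave 20.3, 94.01 and 190 CPM in females and 23.8, 76.2 and 194 CPM in males for cacng8a, and 84.1, 111 and 160 CPM in females and 40.1, 117 and 151 CPM in males for cacng8b. The type II TARP cacng7b had 43.8, 105 and 147 CPM in females and 51.2, 106 and 161 CPM in males. Its copy cacng7a was lower and more scattered, at 0.933, 15.6 and 39.9 CPM in females and 1.06, 14.2 and 31.9 CPM in males. The gene cacng3b had 3.02, 37.4 and 57.9 CPM in females and 11.4, 30.7 and 71.1 CPM in males. The genes cacng4a and cacng5a had medians from 4.38 to 5.47 CPM in either sex, and cacng5b and cacng1a, a muscle channel subunit, stayed below 4 CPM in every fish.

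**Figure D2:**
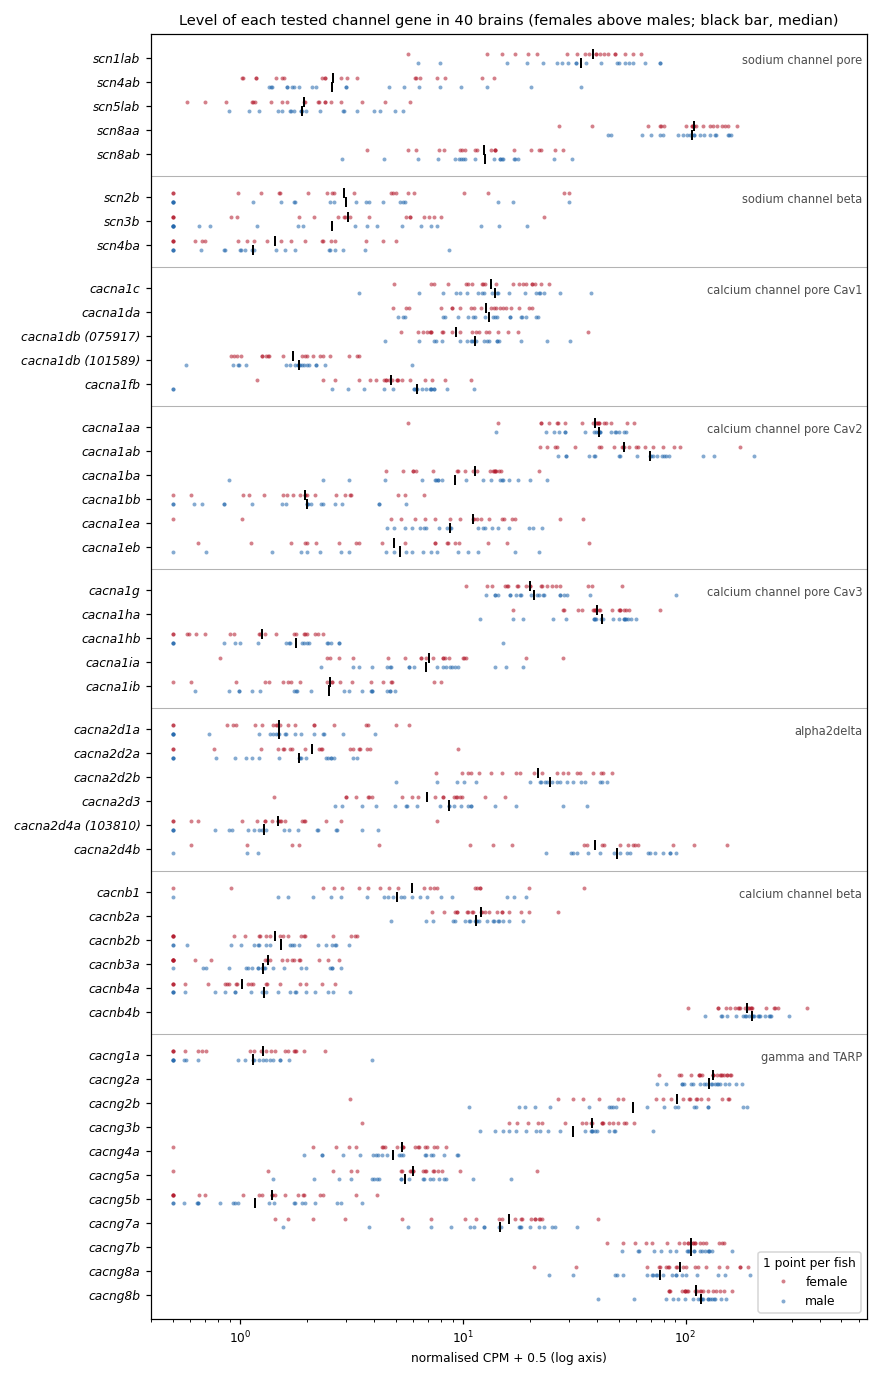
CPM plus 0.5 (logarithmic horizontal axis) of the tested channel genes shown, grouped by subunit; each point is 1 fish, females above males, and black bars are medians. The points of cacnb4b lie between 102 and 352 CPM (122 to 259 CPM without the 6 libraries with few genes), whereas those of cacna2d4b run from 0 to 154 CPM.

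The 16 members that did not pass the filter were scn1laa, scn4aa, scn12aa, scn4bb, cacna1fa, cacna1sa, cacna1sb, a pair of cacna1db models, a model of cacna2d4a, cacnb3b, cacng1b, cacng3a, cacng4b, cacng6a and cacng6b. None had more than 99 counts in any fish, and each was at 0 counts in 9 to 35 of the 40 fish. A count of 0 in a library of this depth limits reads and does not show that the gene was silent. Several of them, such as scn4aa, cacna1sa, cacna1sb, cacng1b, cacng6a and cacng6b, belong to channels known from skeletal muscle.

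Zebrafish keep both copies of many of these genes from the duplication of the teleost genome. For 16 pairs both copies were tested, and their read counts were compared within each fish as the log2 ratio of copy a over copy b, so that the size of the library cancels out. Transcript lengths were not corrected for, so the sign of a ratio tells which copy gave more reads. An effect of length that is alike in all fish cancels from the change of a ratio between fish. Whether it was alike in the libraries with few genes was not tested. In 7 pairs both copies had counts in every fish, and those shown are described first. The steadiest was scn8aa over scn8ab, with a lowest, median and highest log2 ratio of 2.23, 3.09 and 3.88 in females and 2.39, 3.12 and 4.23 in males, so that scn8aa gave more reads in all 40 fish. In contrast, cacng2a over cacng2b ran from -0.65 to 4.85 in females (median 0.65) and from -0.34 to 2.99 in males (median 1.11). These highest ratios were female fish 7 and male fish 81, both libraries with few genes. The median over all fish was 0.82, and 0.62 without the 6 libraries with few genes. The ratio of that stargazin pair was above 0 in 34 fish and below 0 in 6.

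Further pairs traded places between fish. For cacng8a over cacng8b the log2 ratio was -2.43, -0.21 and 1.18 in females and -2.50, -0.47 and 1.26 in males, with copy a ahead in 11 fish and copy b in 29. For the P/Q-type pair, cacna1aa over cacna1ab, it was -2.75, -0.63 and 0.79 in females and -2.31, -0.78 and 0.74 in males. The lowest ratios of this pair were female fish 7 and male fish 99, both libraries with few genes. For cacna1da over the 2 tested models of cacna1db together the medians were 0.18 in females and 0.09 in males, and copy a was ahead in 24 fish. The pair cacng7a over cacng7b lay wholly below 0, at -6.87, -2.84 and -1.09 in females and -6.60, -2.94 and -1.17 in males.

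**Figure D3:**
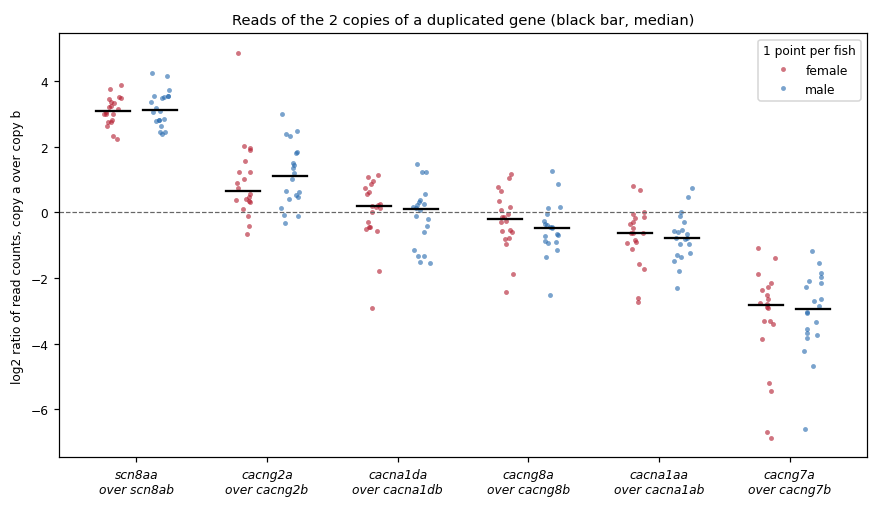
Log2 ratio of read counts of copy a over copy b (vertical axis) in duplicated channel genes with counts of both copies in every fish; each point is 1 fish, females left of males, and black bars are medians. The points of scn8aa over scn8ab all lie above 2, those of cacng7a over cacng7b all below -1, and the other pairs lie on both sides of 0. Female fish 7, a library with few genes, is the highest point of cacng2a over cacng2b and the lowest of cacna1aa over cacna1ab.

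In the other 9 pairs at least 1 copy was at 0 counts in 1 to 6 fish. Of their ratios only medians and the fish with a copy ahead are given. In fish with a copy at 0, 0.5 counts were added to both copies. Copy a had the more reads in cacna1ha over cacna1hb (median log2 ratio 5.38 over all fish), cacnb2a over cacnb2b (3.46), cacna1ba over cacna1bb (2.72), cacng5a over cacng5b (2.54), cacna1ia over cacna1ib (1.60) and cacna1ea over cacna1eb (1.01). Copy b had the more reads in cacnb4a over cacnb4b (-8.06), cacna2d4a over cacna2d4b (-5.42) and cacna2d2a over cacna2d2b (-4.21). Some pairs were reversed in single fish. Copy a was ahead in 5 fish for the cacna2d4 pair. Copy b was ahead in 8 fish for cacna1i, in 4 for cacna1e and in 1 each for cacna1b and cacna1h. The cacnb4 pair had the most one-sided median of these 9 pairs, with cacnb4b ahead in all 40 fish. In all 40 fish cacnb2a was likewise ahead of cacnb2b, and cacna2d2b of cacna2d2a.

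The spread over fish was read from the biological coefficient of variation (BCV), edgeR's estimate of the SD between fish relative to the mean after counting noise is taken out. The median BCV was 0.668 over the 49 members and 0.489 over all genes tested, and 40 of the 49 lay above the median of genes of like level (genes were divided by average level into 20 bins of equal size). The steadiest members were cacng2a with a BCV of 0.229, cacnb4b with 0.252, cacng8b with 0.257, cacng7b with 0.309 and cacnb2a with 0.344. Genes of like level had a median BCV of 0.255 beside the first of these and 0.406 beside cacnb2a. Thus cacng2a, cacnb4b and cacng8b varied about as much as the median gene of their level.

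At the other end, 8 members had the largest BCV: scn3b with 1.49, scn2b with 1.39, scn4ba with 1.21, cacna2d4b with 1.16, cacna1hb and cacng5b with 1.105 and 1.1, cacng1a with 1.07 and cacnb3a with 1.02. For cacng1a, cacnb3a and cacng5b, which had few reads, this was close to the median BCV of genes of like level, 1.05. For cacna1hb and scn4ba, also with few reads, the genes of like level had a median of 0.992. For scn3b and scn2b the genes of like level had medians of 0.706 and 0.631. The gap was widest for cacna2d4b, whose like-level genes had a median BCV of 0.257 and of which 99.1% had a smaller or equal BCV. The TARP gene cacng2b, with a BCV of 0.697 beside 0.251, was also above 96.1% of the genes of its level. Without the 6 libraries with few genes the median BCV of the members was 0.516, that of scn3b 1.26, that of scn2b 1.101 and that of cacna2d4b 1.18. The median over all genes is not given without those libraries. So 0.516 cannot be set beside the 0.489 of all 40 fish. As plain SD over mean of CPM within each sex, averaged over the sexes, the spread of cacna2d4b was lower, 0.785. By that measure scn3b had 1.25 and scn2b 1.48, and the median over the members was 0.622. The comparison with genes of like level rests on the BCV alone.

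**Figure D4:**
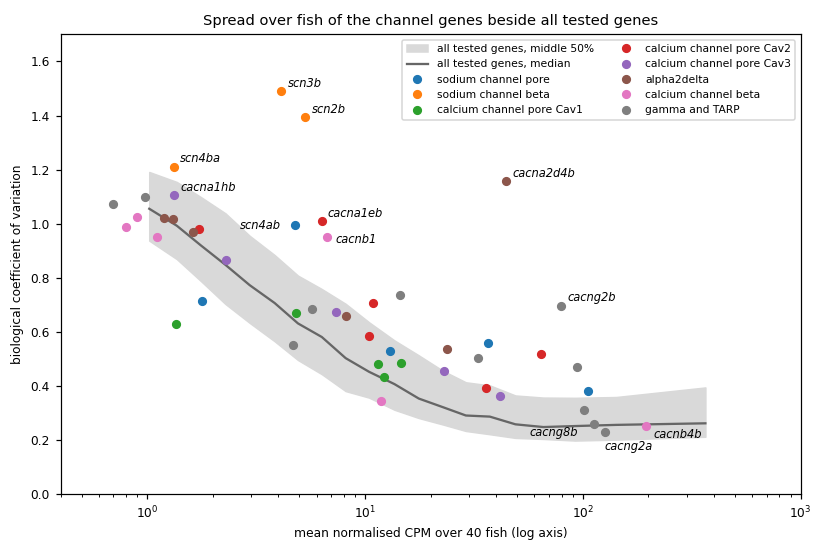
Biological coefficient of variation over 40 fish (vertical axis) against mean CPM (logarithmic horizontal axis); coloured points are the tested channel genes shown, by subunit, the grey line and band the median and middle 50% of all genes in 20 bins of level. The point of cacna2d4b stands at 1.16 and that of cacng2b at 0.697, whereas cacng2a, cacnb4b and cacng8b lie at 0.229 to 0.257 by the grey line.

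Several channel genes varied over fish together with region markers. The correlations that follow are a description over 40 fish, with no test, because genes and region lists were picked with the values known, and both measures of a fish share the scaling of its library. The level of cacna2d4b rose with the cerebellum marker sum (Pearson r = 0.93 on log2 scales, Spearman rho = 0.90; rho 0.93 in females and 0.82 in males, and r = 0.93 without the 2 fish farthest from the median of the marker sum). The 4 fish with the lowest counts of cacna2d4b had marker sums of 715 CPM in male fish 34, 756 CPM in female fish 68, 212 CPM in male fish 44 and 513 CPM in female fish 37. In male fish 52 and female fish 89, where cacna2d4b stood at 90.2 and 154 CPM, the sums were 8734 and 7699 CPM.

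Other genes went the same way less closely, with rho of 0.76 for cacng7b, 0.72 for cacna1ab, 0.66 for cacna1ia and 0.64 for cacnb4b. The opposite direction was taken by cacng8a (r = -0.73, rho = -0.87; rho -0.89 in females and -0.83 in males), cacng3b (rho = -0.82), cacng5a (rho = -0.74), cacng2b (rho = -0.72), cacna1bb (rho = -0.63), cacnb1 (rho = -0.54) and cacng2a (rho = -0.52). The level of cacng8a was 194 CPM in male fish 34 and 149 CPM in male fish 44, both poor in cerebellum markers, against 23.8 CPM in male fish 52 and 20.3 CPM in female fish 89. Over the 49 members, 6 had a rho above 0.5 with the cerebellum sum and 7 below -0.5, together 26.5%, beside 20.5% of all 16875 genes. With the telencephalon sum 8 members had a rho above 0.5 and 6 below -0.5, together 28.6%, beside 21% of all genes. There cacng8a (rho = 0.91), cacng3b (0.80) and cacng2b (0.75) were the highest and cacna1ab (-0.77), cacna2d4b (-0.77) and cacna1ia (-0.70) the lowest. The level of cacna2d3 went with the sum of 7 hindbrain and cord markers (r = 0.69, rho = 0.73; r = 0.65 without the 2 farthest fish). That sum was 64.8 CPM in male fish 81, the highest male for cacna2d3. It was 71.1 CPM in female fish 22, the highest female for cacna2d3 (15.0 CPM). The highest sum, 106 CPM, was in male fish 82, which was not the highest male for cacna2d3. With this sum 1 of the 49 members had a rho above 0.5 and 0 below -0.5, together 2.04%, beside 0.219% of all genes. The markers were summed over all genes of each list, so genes with many counts weighed most. In the cerebellum list zic1 and neurod1 had the highest medians, 19638 and 18982 counts, against 232 for gabra6b and 581.5 for slc17a7a. In the telencephalon list emx1 was at 0 counts in 28 fish and foxg1a in 14. Of the hindbrain list only 3 genes passed the filter. There hoxb4a was at 0 in 34 fish, hoxd4a in 27 and hoxb5a in 23, and slc6a5 had the highest median, 97.5 counts. The median cerebellum sum was 3537 CPM in females and 4152 CPM in males. The median telencephalon sum was 76.4 CPM in females and 40.2 CPM in males. For the hindbrain and cord sum the medians were 4.84 CPM in females and 11 CPM in males. The part of the dissected regions in these levels, and in the sex fold changes given above, was not tested.

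Other channel genes varied with the number of genes detected. The level of scn3b rose with it (r = 0.76, rho = 0.83; rho 0.71 in females and 0.88 in males, and r = 0.73 without the 2 farthest fish), as did that of scn2b (r = 0.76, rho = 0.73) and cacna1ea (r = 0.73, rho = 0.72). The 6 libraries with few genes had 0 counts of scn2b in 5 and of scn3b in 4, against 1 and 4 of the other 34 fish. The muscle-type pore scn4ab went the opposite way (r = -0.85, rho = -0.79; r = -0.82 without the 2 farthest fish), with 5.6 to 33.6 CPM in the 6 libraries (median 12.8) and 0.521 to 9.35 CPM in the other 34 (median 1.76). The median of cacna1ab was 127 CPM in the 6 (31.3 to 202 CPM) and 52.2 CPM in the 34 (21.7 to 87.9 CPM). Over all fish, however, its rho with the number of genes detected was only -0.31. The median of cacng2b was 19.6 CPM in the 6 (2.61 to 96.8 CPM) and 87.5 CPM in the 34 (17.3 to 188 CPM), with a rho of 0.61. Of the 49 members, 16 had a rho above 0.5 with the number of genes detected and 1 below -0.5, together 34.7%, beside 25.6% of all genes. The part of library size, RNA quality or input in these levels was not tested.

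**Figure D5:**
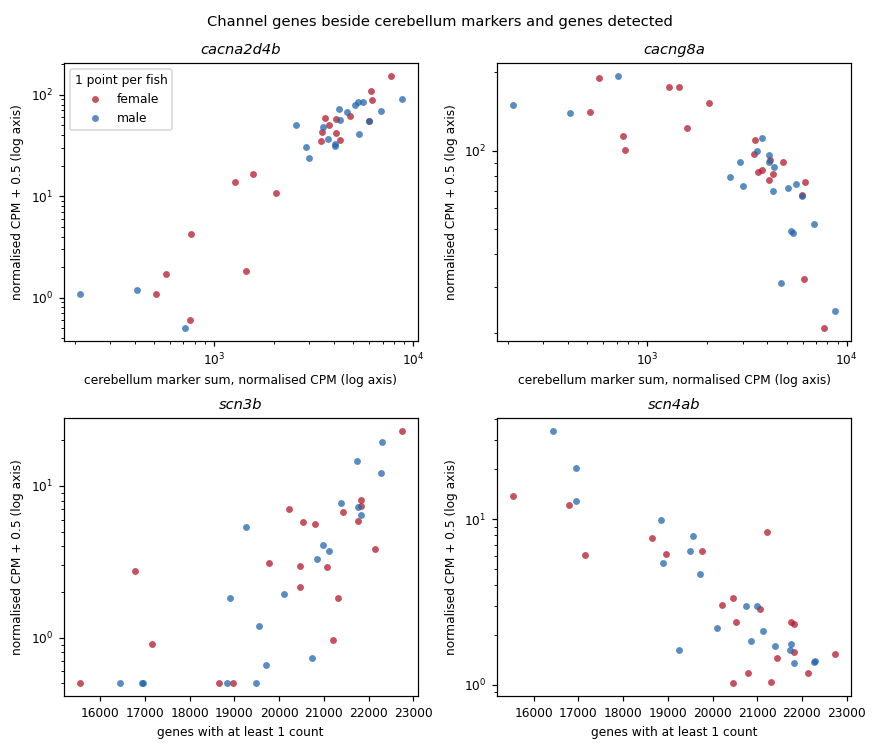
CPM plus 0.5 (logarithmic vertical axes) of cacna2d4b and cacng8a against the cerebellum marker sum (logarithmic horizontal axis, top) and of scn3b and scn4ab against the number of genes with a count (bottom); each point is 1 fish, in red for females and in blue for males. Points of cacna2d4b climb to the right (rho = 0.90) and those of cacng8a descend (rho = -0.87), whereas below those of scn3b climb (rho = 0.83) and those of scn4ab descend (rho = -0.79).

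Genes that work with the channels did not differ between the sexes either at the adjusted threshold. Of 52 listed partners, such as ankyrins and spectrins that anchor sodium channels, RIM proteins that hold calcium channels at release sites, and ryanodine receptors, 40 symbols were measured and 42 gene models were tested. None was called in females against males with edgeR in either direction, beside 0% of all genes, and DESeq2 called 0 of all genes. At an unadjusted p under 0.05 there was 1 partner (2.38%), beside 376 of all 16875 genes (2.23%), a similar share. That partner was the small GTPase gene gem, which binds calcium channel beta subunits, with a log2 fold change of 0.96 ± 0.38 (SE, edgeR p = 0.0161). The median log2 fold change of the partners was 0.03 and their median BCV 0.527, beside 0.668 for the channel genes.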

How the data were processed

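Per the study's methods, the authors dissected brains, made directional poly-A libraries, sequenced them as paired reads and ran nf-core/rnaseq with the Ensembl zebrafish reference (GRCz11). The values used are the expected counts per gene that the authors deposited under the name of salmon, a transcript quantifier, as 1 table of females and 1 of males. The annotated table gave symbols; its deposited mean, a score here, equalled the mean of DESeq2-normalised counts over these 40 fish for the median gene (ratio 1). Fold changes and p-values of the authors' own comparisons were not used. Counts were rounded, filtered with filterByExpr, scaled by TMM and tested with edgeR 4.0.16 (quasi-likelihood, females against males, Benjamini-Hochberg over all 16875 genes). DESeq2 1.42.0, limma 3.58.1 and other filters and scalings served as alternatives. The fit was first tested on simulated data. Named were members with the 5 smallest p, the most reads (read levels replaced the planned levels per kilobase), both tested copies of a pair, and the 8 largest BCV. The members and lists were chosen with earlier results of these data known. No 2 libraries held identical counts. Fish shared tanks, which the count columns do not show, and p-values measure the spread between fish only. Whether the counting used the strand is not given in the sources used here, so how reads of overlapping genes were assigned is uncertain. Values of 1 pair of gene copies are not reported here, though it is in the counts over all members.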

Additional observations from a re-analysis of the deposited data

How the results depend on the processing

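No channel gene was called in females against males under any of the 11 alternatives, planned or added, with 0 to 2 members at an unadjusted p under 0.05. That limit was passed by 376 of 16875 genes (2.23%) in the main fit. Among the alternatives the fewest were 324 of 16798 genes, without male fish 81. The most were 2726 of 27947 genes, without the filter on low counts, where 1 of 65 members passed. Over all genes the count of calls was 0 in edgeR and 13 without the filter on low counts, and 1 with a filter at a mean of 1 CPM; none of these was a channel gene, and the cause was not tested. The direction of cacna1hb, cacna2d3, cacng8a, cacna2d2a and cacna1ab held under every alternative, although with limma voom the log2 fold changes were closer to 0, such as 0.08 for cacna2d2a (p = 0.841) and -0.11 for cacna1ab (p = 0.512). The median BCV and the median log2 ratios of copies moved by less than their limits of 1.5-fold and 1 SD. Added after seeing the data were the fits without the 6 libraries with few genes, without male fish 81, without the 3 fish of the smaller flow cell, and with the number of genes detected as a covariate. Without those 3 fish the log2 fold change was -1.30 for cacna1hb (edgeR p = 0.0253) and -0.70 for cacna2d3 (edgeR p = 0.0317). Within the smaller flow cell, 1 female and 2 males are too few for a value of their own. No paired analysis was possible because the count columns carry fish numbers that the labels do not share between the sexes. Levels per kilobase and their length alternative were not run, since no transcript lengths were used here. Depth limits the 16 untested members, whose counts are few.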
